A study of Glycine max with 2 samples.

Results

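The transcripts described here belong to 5 soybean (Glycine max) genes of leaf carbohydrate metabolism: 2 genes of the large subunit of ADP-glucose pyrophosphorylase, a beta-amylase, a sucrose synthase and the sugar exporter SWEET20. They were picked by gene identifier, with earlier results of these data known. Most stood out there for a large ratio between libraries, so their ratios between libraries are given as a description and are not tested. Of 4096 different transcripts from 3358 genes listed at either age, 8 transcripts belong to these 5 genes. At 50 days 7 of 2413 listed transcripts were theirs, from 4 genes, and at 95 days 3 of 2471, from 3 genes. Only 2 of the 8 were listed at both ages, one of ADP-glucose pyrophosphorylase and one of sucrose synthase.

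The study compared leaves of early and late senescence type soybean plants grown in a greenhouse under normal conditions, at 50 and at 95 days after sowing, to ask which genes differ between the types. Each age has 1 table by the authors that sets a library A against a library B, which leaves a single library for each type at each age and no replicate. No header or label used here says whether A or B is the early type, nor that A is the same type at both ages, so the libraries are called A and B. The names of both deposited tables put the early type before the late type, but do not tie either type to a column, and were not used. The cultivars, the number of plants in a library, the leaf position and the hour of harvest are not stated in the labels or headers. The tables list single transcripts (isoforms, numbered after the gene identifier), each with a deposited p-value under 0.05. A transcript that is missing at an age therefore has no value there, and library depth is unknown. Of words for leaf genes (chlorophyll a-b binding, ribulose bisphosphate carboxylase, photosystem), 5 transcripts were listed at 50 days and 2 at 95 days, of seed storage proteins 0 at both, and of leghemoglobin or nodulin 3 and 1. Of the leaf transcripts at 50 days 4 of 5 had more reads in A, against 60.8% of all listed transcripts. The 1 vascular transcript listed (phloem protein or xylem) had 0 in A and 239 in B, where 39.2% of all listed had more reads in B. ADP-glucose pyrophosphorylase had more reads in A and sucrose synthase more in B, but such small counts link neither to a cell type. At 95 days 1 leaf transcript lay on each side and 0 vascular ones were listed. Of the leghemoglobin or nodulin transcripts 1 of 3 had more reads in A at 50 days, and 1 of 1 at 95 days. The part of such transcripts in the results was not tested. Because only differing transcripts are listed, this does not check the tissue label.

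Leaves store part of the carbon fixed by day as starch in the chloroplast and draw on it at night. ADP-glucose pyrophosphorylase, made of large and small subunits, makes ADP-glucose, the glucose donor for starch, and is the main control point of the pathway; its large subunits mostly tune the enzyme's regulation. Beta-amylase cuts maltose from the ends of starch chains, sucrose synthase splits sucrose reversibly into fructose and UDP-glucose, and SWEET proteins let sugars leave cells, in Arabidopsis also as the step before phloem loading. In senescing leaves carbon and nitrogen are moved out to growing seeds.

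At 50 days the listed transcripts of ADP-glucose pyrophosphorylase and SWEET20 lay on the A side and those of Glyma.09G073600, the sucrose synthase gene, on the B side. There were 4 of ADP-glucose pyrophosphorylase, 1 of SWEET20 and 2 of sucrose synthase. In whole leaves, more RNA per cell and more cells of a type cannot be told apart. At 95 days all 3 listed transcripts, of ADP-glucose pyrophosphorylase, beta-amylase and sucrose synthase, had more reads in B. A transcript is called where its deposited adjusted p lies below 0.05 and its log2 ratio is 1 or more in size. At 50 days 5 of the 7 were called, from 4 genes, 4 higher in A (background 3.19% of listed transcripts) and 1 higher in B (1.45%). In either direction the background is 4.64% of transcripts listed at that age, or 0.179% of the about 62413 that the adjusted p-values imply were tested. Nothing is read from that gap, because the same calls led to the choice of the genes. At 95 days 0 of the 3 were called, against 1.5% of listed transcripts and 0.0617% of the about 59955 implied. Each of the 3 has an unadjusted p below 0.05 in the authors' deposited table, as every listed transcript has.

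**Figure D1:**
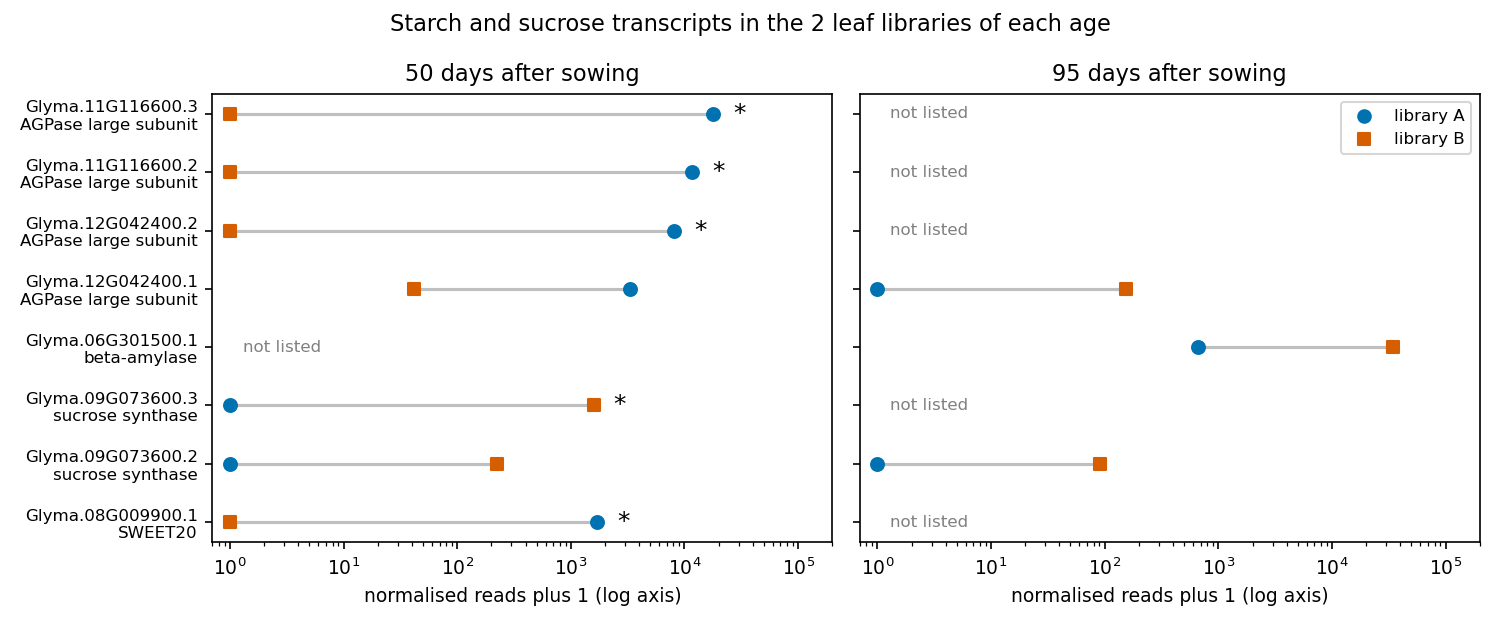
Normalised reads plus 1 (log axis) of the 8 transcripts in library A (circles) and library B (squares) at 50 days (left) and 95 days (right), with 1 library per point and a star where the transcript was called. The 5 starred transcripts are all at 50 days, each with no read in the other library, and the widest gap is that of Glyma.11G116600.3, with 17797 normalised reads in A.

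The highest ratios were those of the gene Glyma.11G116600, whose table entry is the large subunit 1 of glucose-1-phosphate adenylyltransferase, another name for ADP-glucose pyrophosphorylase. Normalised reads are the deposited value less the 1 that the authors added. Glyma.11G116600.3 reached 17797 normalised reads in A at 50 days, and 0 in B. Glyma.11G116600.2 had 11725 in A and 0 in B. Both isoforms were thus high in A and undetected in B, where 0 reads allow up to 3 reads, or 2.82 normalised reads. Against that limit Glyma.11G116600.3 was at least 6318-fold higher in A, and Glyma.11G116600.2 at least 4162-fold. By the size of the deposited log2 ratio, -14.12 and -13.52, they were in places 2 and 4 of the 2413 transcripts listed at that age. The authors' deposited table gives both an adjusted p of 0.00944 and lists the p-value as 0. The reads of the gene's listed isoforms in A were 60.3% from Glyma.11G116600.3 (95% exact binomial interval 59.8 to 60.8, counting error only). No isoform of this gene was listed at 95 days.

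The other gene of the large subunit, Glyma.12G042400, had 2 isoforms listed at 50 days, and they were unlike in library B. Glyma.12G042400.2 reached 8089 normalised reads in A against 0 in B, at least 2872-fold higher in A, with an adjusted p of 0.0159 in the authors' deposited table. Glyma.12G042400.1 reached 3317 in A against 40.4 in B, 82.1-fold (95% interval 60.9 to 114), and was not called, with a deposited adjusted p of 0.266. Library B thus had reads assigned to the gene, and all 43 of the reads that it had from these isoforms came from Glyma.12G042400.1. In A the share of that isoform was 29.1% (28.3 to 29.8) of 14210 reads. Summed over the listed isoforms, the gene reached 11406 normalised reads in A against 40.4 in B, 282-fold (210 to 391). For Glyma.11G116600 the sums were 29523 and 0, at least 10480-fold.

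At 95 days the direction for Glyma.12G042400.1 was the opposite. Library A had 0 normalised reads of it and library B had 154, at least 41.3-fold higher in B, where 0 reads in A allow up to 3.74 normalised reads. The authors' deposited table gives an adjusted p of 0.236, so it was not called at this age either. Whether the difference between ages exceeds the spread between plants could not be tested with 1 library per type and age. Set side by side, the highest of its 4 values was 3317, in A at 50 days, and the next was 154, in B at 95 days; that the 4 libraries share one scaling was inferred from their size factors and is not stated. Of the 788 transcripts listed at both ages, 252 (32.0%) had opposite directions, 177 of them first in A and then in B, as this one did.

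The tables give both large-subunit genes the same Arabidopsis match, AT4G39210. How the authors' counting divided reads between similar genes and between isoforms of a gene is not stated in the labels or headers, so the division among these 4 transcripts is uncertain. A fold of an isoform is not a fold of the gene, since isoforms that are not listed are missing from the sums as well.

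Beta-amylase, Glyma.06G301500.1, was listed at 95 days only, and it had many reads in the lower library too, as no other member had. Library A had 664 normalised reads of it and library B had 34131, so both libraries held the transcript. The value in B was 51.4-fold higher (47.2 to 56.1). The deposited log2 ratio was 5.68, and the authors' deposited table gives a p-value of 0.0251 and an adjusted p of 0.93, so it was not called. The interval rests on 533 reads in A and 31199 in B, and it covers counting error only. Its match, AT4G15210, is the Arabidopsis beta-amylase BAM5, which lies outside the chloroplast, unlike the plastid forms that break down leaf starch at night.

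The calls mostly fell on transcripts without a read in one library. At 95 days 32 of the 37 called transcripts had no read in the lower library, as had 75.3% of all listed. Among the 337 transcripts that had reads in both libraries and more in B, 5 were called, and beta-amylase was in place 152 by log2 ratio. At 50 days 104 of the 112 called transcripts had no read in the lower library, and so had all 5 called ones of the carbohydrate genes. Over both ages, 8 of their 10 listed values had 0 reads on the lower side, as had 70.5% of all listed transcripts at 50 days and 75.3% at 95 days, so this does not set them apart. The smallest absolute log2 ratio listed was 3.58 at 50 days and 3.57 at 95 days, so transcripts with modest differences are not represented at all.

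**Figure D2:**
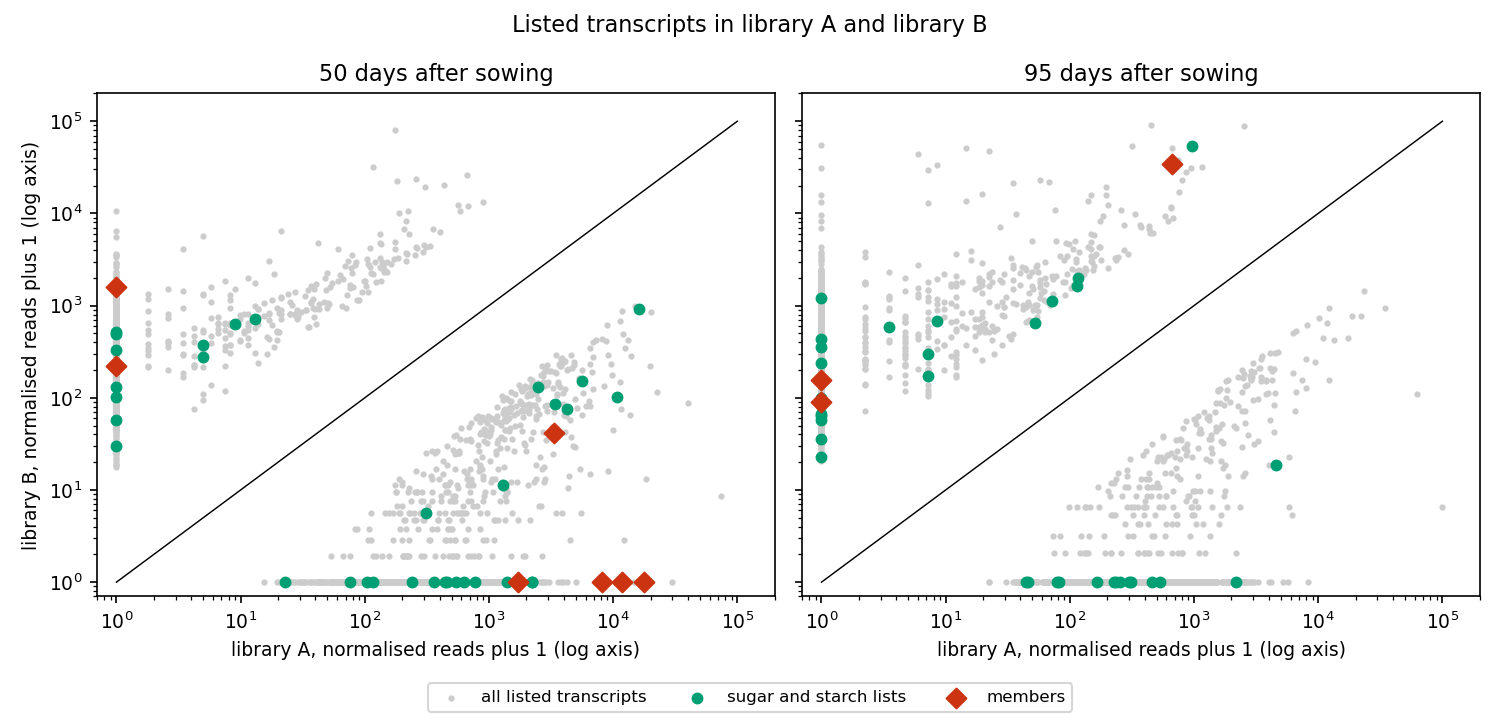
Deposited values of every listed transcript (normalised reads plus 1, log axes) in library A (horizontal) and library B (vertical) at 50 days (left) and 95 days (right). Grey points are all listed transcripts, green points the other sugar and starch transcripts and red diamonds the members. Points on the lower edge or on the left edge have no read in B or A, and the empty band along the diagonal is the region of small differences that the tables do not list.

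Sucrose synthase, Glyma.09G073600, was on the B side at both ages. Glyma.09G073600.3 had 0 reads in A at 50 days and 1590 normalised reads in B, at least 660-fold higher in B. The authors' deposited table gives it an adjusted p of 0.0369, and it was the 1 called transcript of these genes in that direction. At the same age Glyma.09G073600.2 had 0 in A against 221 in B, at least 91.6-fold higher in B, with a deposited adjusted p of 0.246. Of the 1928 reads of both isoforms in B, Glyma.09G073600.3 took 87.8% (86.3 to 89.2). Library A had no read from either isoform, where 0 reads allow up to 2.41 normalised reads.

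At 95 days Glyma.09G073600.2 again had 0 in A, and 89.7 in B. That is at least 24.0-fold higher in B, with a deposited adjusted p of 0.62, and it was not called. It was the 1 transcript of the group seen on the same side at both ages, as were 536 of the 788 transcripts listed at both, 219 of these in B. Glyma.09G073600.3, the isoform with more reads at 50 days, was not listed at 95 days.

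A further sucrose synthase gene with the same match, AT3G43190, Glyma.13G114000, had isoforms on both sides. Its isoform Glyma.13G114000.1 had 4.01 in A at 50 days against 377 in B, the same side as Glyma.09G073600. At 95 days Glyma.13G114000.2 had 0 in A and 353 in B, whereas Glyma.13G114000.4 had 166 in A and 0 in B. None of these 3 was called. All 3 of the carbohydrate genes with several isoforms listed at 50 days had them on 1 side, as had 156 (60.5%) of the 258 such genes in the table.

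SWEET20, Glyma.08G009900.1, was listed at 50 days only. Library A had 1698 normalised reads of it and library B had 0, at least 603-fold higher in A. The authors' deposited table gives an adjusted p of 0.0444, the nearest to the threshold among the called transcripts of the group. No uncalled one was close to it, the next being Glyma.12G042400.1 at 95 days with 0.236 and Glyma.09G073600.2 at 50 days with 0.246. The Arabidopsis match of SWEET20, AT5G23660, is SWEET12, an exporter that releases sucrose for phloem loading in leaves. The same match is given for SWEET15, Glyma.06G166800, and for a SWEET14-like gene, Glyma.05G202600, so it does not single out SWEET20. The symbol given for SWEET20 is SWT15_ORYSI, and that for SWEET15 is SWT12_ARATH. In the RefSeq annotation of Glycine_max_v4.0 the genes named SWEET20 and SWEET21 are neighbours with 0 genes between them.

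The table's SWEET21 transcript, Glyma.08G010000.1, also had more reads in A at 50 days, 5655 against 151, which is 37.4-fold (32.0 to 44.0) with a deposited adjusted p of 0.831. It was therefore read in both libraries, unlike SWEET20. SWEET15, Glyma.06G166800.1, had 16253 in A against 910 in B, 17.9-fold (16.7 to 19.1), with a deposited adjusted p of 1. Its isoform Glyma.06G166800.3 had no read in B, like SWEET20, with 1399 in A at 50 days (at least 497-fold, deposited adjusted p 0.128). At 95 days it again had 0 in B, with 300.2 in A. Including SWEET20, 6 of 8 listed SWEET transcripts had more reads in A at 50 days, where 60.8% of all listed transcripts did. The 2 with more in B were a SWEET3-like transcript, Glyma.14G160100.1, and a SWEET2 transcript, Glyma.15G211800.7. Relative to the median log2 ratio of all listed transcripts (-5.29) 3 of the 8 lay towards A, SWEET20 among them and SWEET21 not. That median is no neutral point, because ratios under 3.58 in size are not listed and it falls among transcripts higher in A. SWEET21 and Glyma.06G166800.1 lay on its B side although both had more reads in A, so nothing is read from the 3. At 95 days 2 of 3 SWEET transcripts had more reads in A, against 46.7% of all, and SWEET20 was not among them. SWEET20 was the 1 called SWEET transcript.

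The remaining transcripts of the same pathways were gathered by words in their table entries. At 50 days 34 such transcripts from 29 genes were listed, with 22 on the A side and 12 on the B side and a median log2 ratio of B over A of -5.54 against -5.29 over all listed. At 95 days there were 35 from 30 genes, with 14 on the A side and 21 on the B side and a median of 4.08 against 4.52. Relative to the median of all listed transcripts 18 lay towards A and 16 towards B at 50 days, and 19 and 16 at 95 days. These medians are no neutral points, because small ratios are not listed. The median lay among transcripts higher in A at 50 days and among those higher in B at 95 days, so some transcripts were counted for the side with fewer reads. At 50 days 1 of these 34 was called, and at 95 days 0 of the 35. The called one was a polyol transporter 5-like transcript, Glyma.12G044700.1, a carrier of sugar alcohols, with 2234 in A against 0 in B (at least 793-fold, deposited adjusted p 0.0296).

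**Figure D3:**
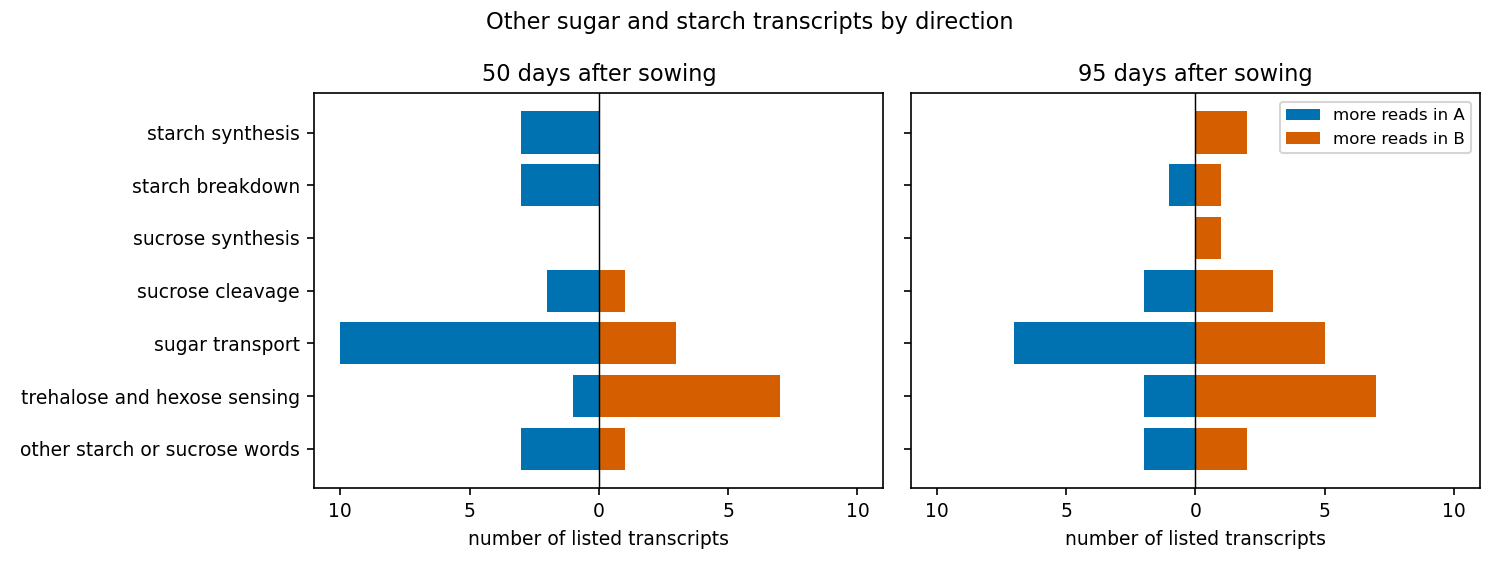
Number of other listed sugar and starch transcripts with more reads in A (left of 0) and in B (right of 0) for each word list, at 50 days (left panel) and 95 days (right panel). Sugar transport was the list with the most transcripts in A at 50 days, 10 of 13, and trehalose and hexose sensing had 7 in B at each age.

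The starch synthesis list held 1 further gene, the branching enzyme Glyma.03G192300, which adds side branches to starch chains. Its 3 listed isoforms all had more reads in A at 50 days, as had ADP-glucose pyrophosphorylase, and its 2 listed isoforms at 95 days both had more in B, as had Glyma.12G042400.1. Glyma.03G192300.3 had 2215 in A at 50 days with 0 in B, and 97.4 in B at 95 days with 0 in A. Its deposited adjusted p was 0.0854 and 0.719, so it was called at neither age. For the starch breakdown list, beside beta-amylase, the words found isoamylase 1, Glyma.08G028400.2, a debranching enzyme, with 227 in A against 0 in B at 95 days. The word amylase placed it there, which does not say whether it acts in starch breakdown or in starch synthesis. Its side was opposite to that of beta-amylase, and also to that of Glyma.12G042400.1 and the branching enzyme at that age. The other 4 transcripts of the starch breakdown list over both ages were alpha-amylase inhibitor and lipid transfer family proteins, which are not starch enzymes.

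The sucrose synthesis list held 1 transcript, sucrose-phosphatase 1, Glyma.10G086600.1, the last enzyme of sucrose synthesis, with 2.49 in A against 583 in B at 95 days. That is 234-fold (64.5 to 1938, from 2 reads in A), with a deposited adjusted p of 0.234. The sucrose cleavage list, which also took in an inhibitor-domain protein, was divided at 95 days, with 2 transcripts in A and 3 in B. Among the enzymes that cleave sucrose, a cell wall beta-fructofuranosidase (invertase), Glyma.15G024600.1, had 461 in A against 0 in B at 50 days, the side opposite to sucrose synthase. Trehalose-phosphate synthases make a signal of sucrose status, and the phosphatases remove it. Their transcripts had more reads in B in 5 of 5 cases at 50 days, from 4 genes, and in 4 of 4 at 95 days. Of all listed transcripts 39.2% and 53.3% did. The only synthase among them was Glyma.12G234200.2, at 50 days, and the others were phosphatases. They are part of the trehalose and hexose sensing list, where 7 of 8 and 7 of 9 had more reads in B. Closest to a call among the phosphatases was Glyma.12G005200.1, with 0 in A against 1214 in B at 95 days and a deposited adjusted p of 0.0509.

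**Figure D4:**
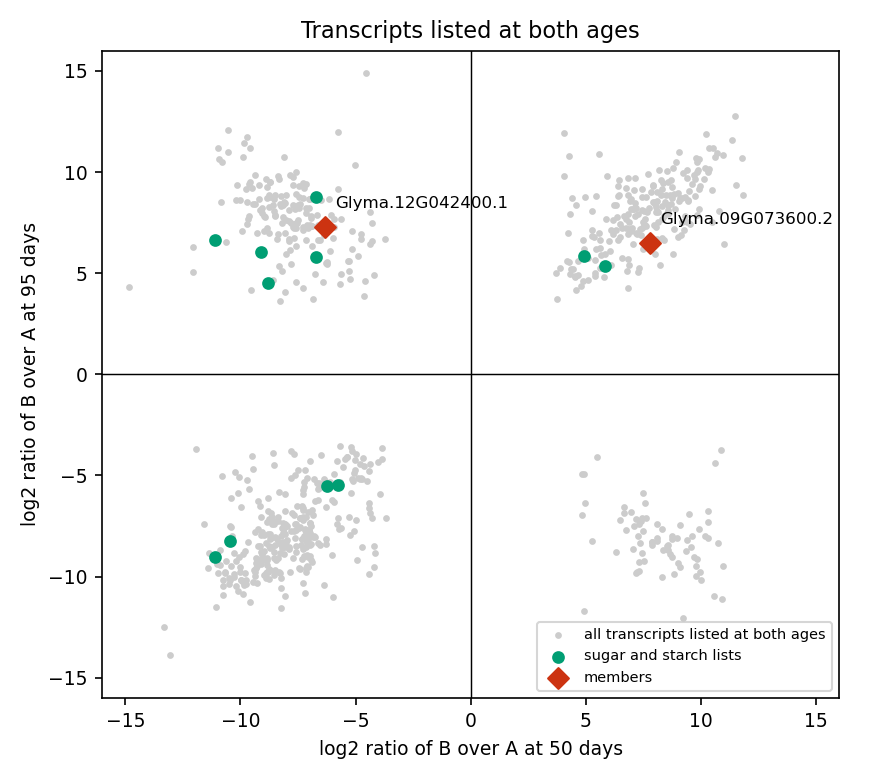
Deposited log2 ratio of B over A at 50 days (horizontal) and at 95 days (vertical) for the 788 transcripts listed at both ages, with the 2 members as red diamonds and 11 other sugar and starch transcripts in green. Glyma.09G073600.2 lies in the upper right (7.79 and 6.50, more in B at both ages) and Glyma.12G042400.1 in the upper left (-6.33 and 7.28, first more in A, then in B).

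Patterns most like those of both members listed at the 2 ages were sought among the other 787 such transcripts, by Euclidean distance over the 4 log2 deposited values. Closest to Glyma.09G073600.2 was a TMV resistance protein N-like transcript, Glyma.16G135200.1, at a distance of 0.105, with 0 and 229 in A and B at 50 days and 0 and 84.2 at 95 days. An amine oxidase, Glyma.08G282800.2, at 0.566, and a disease resistance protein, Glyma.17G180100.2, at 0.575, came next. Closest to Glyma.12G042400.1 was Glyma.03G261300.2, an APRR5 pseudo-response regulator of the circadian clock, at 1.97. Its values in A and B were 911 and 32.9 at 50 days, and 0 and 103 at 95 days. The next were a synaptotagmin-5-like transcript, Glyma.08G041800.2, at 2.75, and an uncharacterized protein, Glyma.13G106700.17, at 3.24. The 4 values are from 4 single libraries, and many transcripts share a 0 in the same library, which brings them close.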

How the data were processed

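Per the labels' protocols, leaf RNA (Genall Ribospin) was sequenced on the Illumina NovaSeq platform. Trimmomatic 0.36 and DESeq 1.36.0 are named in the submitters' processing notes; the sources used here do not give the aligner, counter, build or annotation. The values for A and B that the authors deposited are a non-negative signal: in all 4 columns, 100% of values less 1 were whole multiples of 1 step (within 0.01 of a whole number). They were taken as whole-number counts ("reads", which could be rounded estimates) divided by a size factor, with 1 added. The implied size factors were 1.25 (A) and 1.06 (B) at 50 days and 0.803 and 0.914 at 95 days. The 4 size factors multiply to 0.974, from which joint scaling was inferred. The deposited log2 ratio is that of B over A with the added 1. Every p-value and adjusted p-value was taken from the tables as the authors deposited them. At 50 days 1 repeated row was counted once.

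With 1 library per type and age no test was made, and the deposited p-values compare 2 libraries. Folds carry a 95% Clopper-Pearson interval on the reads, or are lower bounds against 3 reads per library; both cover counting error only. The numbers of transcripts tested were inferred from adjusted p over p. The members, the 7 word lists and the naming rule were chosen with earlier results of these data known. That rule covers all member isoforms and, from each list, called transcripts and the 3 with the most reads at each age; of the latter only those bearing on the members are given. Transcripts beyond it were named after their values were seen. A transcript matching several lists was counted in the first. RefSeq names for soybean (Glycine_max_v4.0) held 0 of the tables' identifiers and served for the neighbouring SWEET genes alone. No sequence is shown. The step recovery, the inferred number tested and the intervals were tested on simulated data. The tools were scipy 1.17.1, numpy 2.4.6, pandas 2.3.3 and matplotlib 3.10.9 under Python 3.11.15.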

Additional observations from a re-analysis of the deposited data

Results flagged for a closer look

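One member and 5 transcripts of the word lists had opposite directions at the 2 ages, more reads in A at 50 days and more in B at 95 days. The difference between ages was not tested, since each age has 1 library per type, and it is not stated that A is the same type at both. For ADP-glucose pyrophosphorylase, Glyma.12G042400.1, the log2 ratio of B over A was -6.33 at 50 days and 7.28 at 95 days. The branching enzyme isoforms Glyma.03G192300.3 and Glyma.03G192300.5 had -11.11 and -9.09 at 50 days, and 6.62 and 6.06 at 95 days. A polyol transporter, Glyma.04G014000.1, had -8.79 and then 4.52. A sucrose nonfermenting 4-like protein, Glyma.03G236900.3, a regulatory subunit of a kinase that responds to energy status, had -6.71 and then 8.77. An invertase or pectin methylesterase inhibitor family protein, Glyma.09G231900.1, had -6.72 and then 5.82, and it had reads in both libraries at both ages (10672 and 100.5 normalised reads in A and B at 50 days, 957 and 54226 at 95 days). None of these 6 was called at either age. Of the 13 sugar and starch transcripts listed at both ages, members included, 0 went from B to A, against 75 of 788 over all. Only 1 member and 2 transcripts of the word lists were on the B side at 50 days, so few could go that way and nothing is read from the 0.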

How the results depend on the processing

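The direction of each of the 10 member values held with ratios centred on the median of the listed transcripts (added after seeing the data). Nearest to the median were Glyma.12G042400.1 at 50 days (log2 ratio -6.33, median -5.29) and beta-amylase at 95 days (5.68, median 4.52). With reads not normalised, also added then, no direction could change, because size factors within an age differed far less than any listed ratio. The factors of A and B were 1.25 and 1.06 at 50 days, and 0.803 and 0.914 at 95 days. At an adjusted p under 0.01 the called transcripts of the 5 genes at 50 days fell from 5 to 2, both of Glyma.11G116600, and those of the word lists from 1 to 0. At an adjusted p under 0.1 the word lists held 3 called transcripts at 50 days and 1 at 95 days. The remaining 44 of 48 alternatives for counts stayed within 1.5 times, each count taken on its own. Among them were centred ratios, at least 100 normalised reads, 1 transcript per gene and words in the description only. Another, added after seeing the data, left out inhibitors, 6-phosphofructokinases and sucrose nonfermenting proteins. Having no minimum ratio was also among them but could change no call. The smallest absolute log2 ratio listed was 3.58 at 50 days and 3.57 at 95 days. The counts of calls at 95 days were 0, so a lower adjusted p, centred ratios or at least 100 reads could only give 0. Directions without normalisation could not change either, so many of the 44 were fixed in advance. With centred ratios the larger side of the word lists changed at 95 days, from 14 in A and 21 in B to 19 and 16. The centre there was a log2 ratio of 4.52, among transcripts higher in B, so some with more reads in B were counted for A. Nothing is therefore read from that change. Lower bounds depend on the limit set for 0 reads: with 1 read in place of 3 they were 3 times as high. Keeping the added 1 gave folds of 0.953 to 3.78 times those reported, and using reads without size factors 0.855 to 1.17 times. No paired analysis was possible because each type and age has 1 library, and for the same reason no library could be left out. Depth is unknown, so each value is limited by its own reads.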

Other observations

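A starch-related enzyme that the word lists missed was found after its values were seen. Its entry does not say whether it acts in starch breakdown or in starch synthesis. Plastid alpha-1,4 glucan phosphorylase, Glyma.20G026700, had 2 isoforms listed at 95 days, and both had more reads in B, as had beta-amylase. Glyma.20G026700.4 had 146 normalised reads in A against 5945 in B, 40.8-fold (95% interval 33.97 to 49.4), and Glyma.20G026700.1 had 162 and 3610, 22.3-fold (18.7 to 26.8). Neither was called, with adjusted p-values of 0.559 and 1 in the authors' deposited table. Like beta-amylase, and unlike the called transcripts of ADP-glucose pyrophosphorylase at 50 days, both had reads in A and B.

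An uncharacterized gene whose table symbol is PWD_ARATH, Glyma.03G063000, had isoforms on opposite sides at 50 days. Glyma.03G063000.1 had 281 in A against 0 in B, and Glyma.03G063000.2 had 132 in B against 0 in A (normalised reads). At that age 102 of the 258 genes with several listed isoforms had them on both sides, and at 95 days 145 of 280 did. At 95 days neutral invertase D, Glyma.10G214700, was another such gene, with 235 and 0 in A and B for Glyma.10G214700.4 and 0 and 162 for Glyma.10G214700.2.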
